A study of Rattus norvegicus with 16 samples.

Results

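Neuropeptide precursors are the genes from which neurons make peptide transmitters, and 10 of them were followed here in brainstem tissue of Pink1-/- and wild-type rats: Penk, Pdyn, Cck, Nts, Tac1, Sst, Npy, Gal, Vip and Crh. Each was taken by its gene symbol from the deposited count table of each sex, and all 10 were found among 32754 identifiers, with 1 row each. The series is titled for the nucleus ambiguus, the medullary column of motor neurons for the larynx and pharynx, and its labels call the tissue brain. Total RNA was sequenced from 16 rats aged 8 months in 4 groups of 4, namely wild-type males, Pink1-/- males, wild-type females and Pink1-/- females. Pink1-/- animals lack a mitochondrial kinase that tags failing mitochondria for breakdown, and no other allele or agent is named for any group. Libraries are named by the animal number in the labels, and the labels do not say how the Pink1 gene was disrupted or whether animals were littermates.

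Peptide precursors are cut by prohormone convertases and trimmed by carboxypeptidase E inside dense-core vesicles, and the released peptides act slowly through G protein-coupled receptors. In the ventral medulla, enkephalins depress breathing and the passage of pain signals, substance P excites respiratory neurons, and somatostatin marks rhythm-generating cells close to the nucleus ambiguus. Several of these genes are textbook targets of cyclic AMP signalling through the CRE motif.

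Total counts ran from 10959412 to 13691846 in males and from 13875621 to 26570195 in females. Pink1 itself stood at 64.7 to 78.3 CPM, a count scaled to library size by the trimmed mean of M-values (TMM), in wild-type males and 1.51 to 2.32 in Pink1-/- males, and at 115 to 137 against 4.68 to 11.6 in females, so all 16 libraries carried the level of their genotype label. Chat, the enzyme that makes acetylcholine in motor neurons, ran from 6.78 to 27.1 CPM in males and from 6.24 to 76.9 CPM in females. The motor neuron marker Mnx1 had no count in any library (0 of 16), and the hypothalamic peptide gene Hcrt had 0 counts. The 7 features over 1% of a library together held 44.8 to 50.1% of the counts in males and 20.3 to 28.9% in females, and 1 feature of 7SL RNA held 2.10% in Pink1-/- male 17 and 0.141 to 0.726% in the other males. Males and females were deposited as separate tables, so sex cannot be told apart from how each table was made, and every comparison of levels is within 1 sex. The files give no transcript lengths, so levels are not ranked between genes.

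Across 16 libraries, 9 of the 10 precursors had counts and 1, Npy, had none. Npy encodes neuropeptide Y, a peptide of catecholamine and interneuron cells. It was listed at 0 counts in all 16 libraries, which at 3 counts per library allows up to 0.274 CPM of the unscaled total in the shallowest male library and 0.113 CPM in the deepest female one, a limit that covers counting error only. The limit holds for reads assigned to the Npy identifier, and how well the annotation behind the counts covers the gene was not tested. Its receptor genes Npy1r, Npy2r and Npy5r all had counts, with Npy5r at 4.64 ± 0.348 CPM (SD, n = 4) in wild-type males. The authors' deposited comparison tables do not list Npy in either sex.

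Pdyn, Tac1 and Sst are shown here by their promoters because their levels were high in the same 4 female libraries, as were those of Penk and Crh. RefSeq windows on GRCr8, running from 250 bases before the gene start to 50 after it, were found for 7 of the 10 precursors, and none for Penk, Cck or Crh. Capitals mark matches to the CRE TGACGTCA, to its variant TGCGTCA, to the shorter CRE motif TGACG and to the TATA box TATAAA, each searched on both strands. A full CRE match also holds TGACG, and the Tac1 match overlaps one.
Pdyn (chr3:137366454-137366753, minus strand): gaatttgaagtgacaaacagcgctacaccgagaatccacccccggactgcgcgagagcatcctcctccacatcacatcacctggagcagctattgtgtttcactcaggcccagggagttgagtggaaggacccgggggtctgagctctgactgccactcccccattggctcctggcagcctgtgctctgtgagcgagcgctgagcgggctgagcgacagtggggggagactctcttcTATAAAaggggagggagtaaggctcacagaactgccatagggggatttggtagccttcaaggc
Tac1 (chr4:36645333-36645632, plus strand): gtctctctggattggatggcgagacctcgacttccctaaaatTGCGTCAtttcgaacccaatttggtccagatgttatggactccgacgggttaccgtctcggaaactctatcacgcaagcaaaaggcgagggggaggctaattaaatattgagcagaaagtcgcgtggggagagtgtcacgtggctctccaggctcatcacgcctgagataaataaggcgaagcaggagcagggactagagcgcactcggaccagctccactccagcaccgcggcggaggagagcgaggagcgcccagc
Sst (chr11:90461296-90461595, plus strand): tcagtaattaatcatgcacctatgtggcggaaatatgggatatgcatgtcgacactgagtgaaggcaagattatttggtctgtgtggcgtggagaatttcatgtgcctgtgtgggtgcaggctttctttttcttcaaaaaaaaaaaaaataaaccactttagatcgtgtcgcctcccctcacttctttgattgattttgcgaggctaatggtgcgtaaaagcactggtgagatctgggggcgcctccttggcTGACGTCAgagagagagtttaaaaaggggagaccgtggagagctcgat
The Sst window held TGACGTCA starting at position 3 and the Tac1 window TGCGTCA starting at position -208, where 1.83% and 1.9% of 33469 RefSeq windows held those motifs. Positions count from the RefSeq gene start, and where transcription starts in this tissue was not tested. The Pdyn window held no match to a CRE motif and held TATAAA at position -13, a motif of 14.2% of windows. Of the 7 windows, 5 held the shorter TGACG, namely those of Nts, Tac1, Sst, Gal and Vip, against 21.2% of all windows. Nts, Gal and Vip were not among the genes high in the same 4 female libraries. These matches describe letters in a window and are not evidence of binding.

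The male comparison asked whether loss of Pink1 goes with different precursor levels, and 1 of 6 tested precursors rose. Penk, the precursor of the enkephalins, was 1.30-fold higher in Pink1-/- males. Pdyn, Nts, Tac1, Sst and Vip did not pass, and 1 of the 6, Penk, had an unadjusted p under 0.05, as did 26.2% of all genes. All 6 had log2 fold changes above 0, as did 50.8% of all genes. Cck, Npy, Gal and Crh fell under the filter on low counts. Over all 13770 genes tested in males, 2.3% were called in either direction, 1.08% as higher and 1.22% as lower in Pink1-/-. The median log2 fold change of the 6 tested precursors was 0.20, beside 0.0057 for all genes. With signs ignored, the median was 0.197 for the 6 and 0.187 for all genes, so the changes were of usual size.

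Penk stood at 54.5, 57.7, 62.1 and 65.4 CPM in wild-type males 20, 22, 23 and 24. It stood at 73.5, 85.8, 72.2 and 80.4 CPM in Pink1-/- males 17, 18, 19 and 25. Every Pink1-/- male lay above every wild-type male, which held for Penk alone of the 6 tested precursors and in either direction for 15.2% of all genes. The log2 fold change was 0.38 (SE 0.08, edgeR quasi-likelihood adjusted p = 0.0369), from 59.9 ± 4.79 to 78.0 ± 6.30 CPM (SD, n = 4). In the authors' deposited table the log2 fold change was 0.38 with a false discovery rate of 0.0058, where 6.21% of the listed male genes were under 0.05. The edgeR adjusted p was above 0.05 without wild-type 20 (0.0742), 22 (0.118) or 23 (0.0826) or without Pink1-/- 18 (0.0879) or 25 (0.0767), and the direction held in all 8 such fits. The call was also lost with library totals as the only scaling (0.0587) and with all 16 libraries in 1 fit (0.302). Without Pink1-/- 17 and wild-type 23 together, the log2 fold change was 0.43 (edgeR adjusted p = 0.0482).

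Among 17 marker lists for other cell types and regions, 1 separated the male genotypes without overlap. The meningeal list, all 6 of whose identifiers were detected, summed to 31.5 to 36.8 CPM in wild-type males and 19.3 to 24.4 CPM in Pink1-/- males. The separation lay in 1 of 2 identifiers of Ogn, an extracellular matrix proteoglycan gene, at 10.4 to 17.7 CPM in wild-type and 3.43 to 4.44 CPM in Pink1-/- males. The other identifiers overlapped, among them Dcn at 7.53 to 10.9 and 6.47 to 8.57 CPM, Igf2 at 5.85 to 8.55 and 5.45 to 8.13 CPM, and Col1a1 at 0.166 to 0.532 and 0.288 to 0.662 CPM. The part of this list in the Penk result was not tested. The striatal and cortical list, whose tissue is rich in Penk, summed to 25.6 to 31.7 CPM in wild-type and 25.0 to 28.8 CPM in Pink1-/- males, and general neuronal markers to 4899 to 5596 and 4561 to 5146 CPM. In bulk tissue, fewer cells of a type and less RNA per cell cannot be told apart.

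The other opioid gene, Pdyn, encodes the precursor of the dynorphins. Its counts in males were low, from 8 to 43, at 0.677, 0.750, 1.33 and 2.05 CPM in wild-type 20, 22, 23 and 24 and 1.23, 1.64, 1.04 and 3.10 CPM in Pink1-/- 17, 18, 19 and 25. The highest and the lowest libraries of the groups overlapped, and the difference did not pass (log2 fold change 0.55, SE 0.42, edgeR adjusted p = 0.406). Wild-type 24 and Pink1-/- 25, the highest of their groups, also had the highest Cck of their groups, at 1.37 and 1.59 CPM.

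Tac1, the substance P precursor, did not pass in males. Wild-type males 20, 22, 23 and 24 had 11.6, 11.2, 7.97 and 7.53 CPM, and Pink1-/- males 17, 18, 19 and 25 had 8.85, 10.8, 9.83 and 10.2 CPM. The wild-type values fell apart into a high and a low pair, with the Pink1-/- values between them (log2 fold change 0.05, SE 0.15, edgeR adjusted p = 0.851). Sst, the somatostatin precursor, ran from 5.25 to 8.48 CPM in wild-type and from 6.81 to 9.19 CPM in Pink1-/- males (log2 fold change 0.11, SE 0.17, edgeR adjusted p = 0.687).

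Nts, the precursor of neurotensin, was 4.73 to 6.15 CPM in wild-type males. In Pink1-/- males it was 7.83 and 9.36 CPM in animals 17 and 19 but 4.28 and 4.76 CPM in 18 and 25. The Pink1-/- values thus lay on both sides of wild type (log2 fold change 0.28, SE 0.23, edgeR adjusted p = 0.445). Vip, the precursor of vasoactive intestinal peptide, had only 3 to 20 counts in males. It exceeded 1 CPM in wild-type 20 and 22 and Pink1-/- 18 and 25, at 1.18, 1.43, 1.09 and 1.44 CPM, and stayed at 0.249 to 0.473 CPM in the other libraries. The same 4 libraries had the highest Tac1 of the males, and each genotype gave 2 of them (Vip log2 fold change 0.09, SE 0.57, edgeR adjusted p = 0.934).

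The male members under the filter were close to the limit of detection. Cck, which encodes cholecystokinin, had 5 to 22 counts, Gal, which encodes galanin, 1 to 6, and Crh, the stress hormone precursor, 1 to 7. Without the filter, Cck had a log2 fold change of 0.10 (edgeR adjusted p = 0.931), Gal of -0.56 (0.606) and Crh of -1.33 (0.284). In counts, Crh was 2, 3, 6 and 7 in wild type and 2, 1, 3 and 1 in Pink1-/-. These few counts overlapped and no difference was detectable at this depth.

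**Figure D1:**
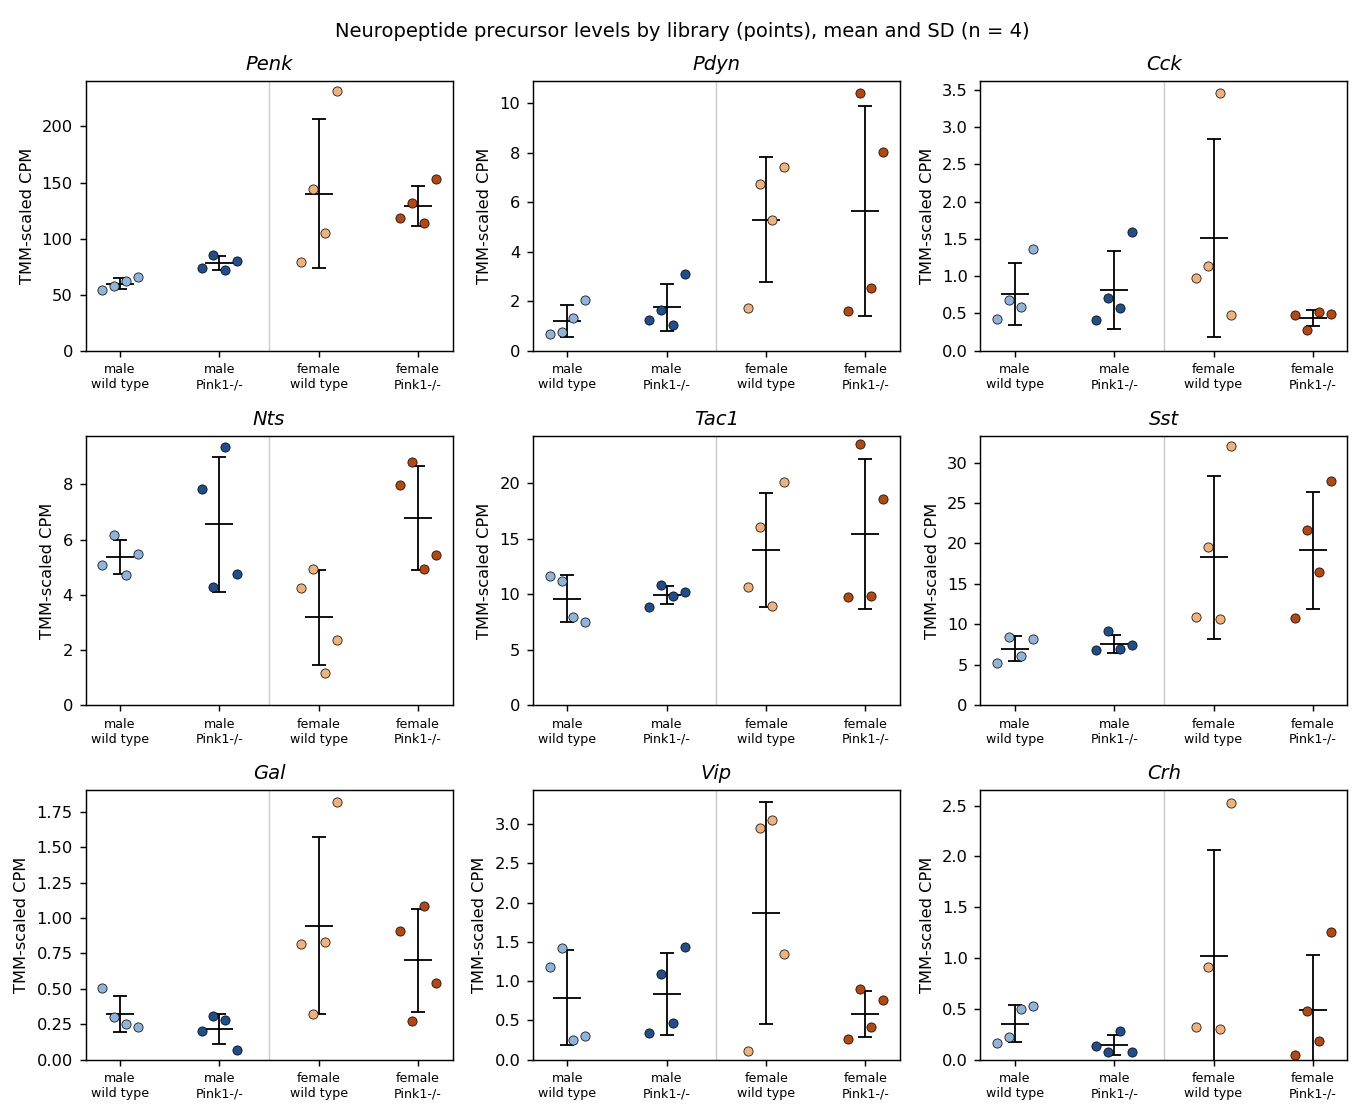
Each panel plots 1 precursor gene, with TMM-scaled CPM on the vertical axis, the 4 groups on the horizontal axis, a point per library, and a bar for the mean and SD (n = 4; arms are cut at 0). Male Penk is the only panel of a tested gene in which the groups of a sex do not overlap, from 54.5 to 65.4 CPM in wild type and 72.2 to 85.8 CPM in Pink1-/-, while Pdyn, Tac1 and Sst spread widely in both female groups.

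The female comparison asked the same question, and 0 of 9 tested precursors passed in the edgeR quasi-likelihood test. DESeq2, limma-voom and the edgeR likelihood ratio test also called 0 of them. An unadjusted p under 0.05 was reached by 3 of the 9, namely Cck and Vip on the lower side and Nts on the higher side, where 4.64% of all genes did so. Over 15265 genes tested, 0.059% were called, 0.0262% as higher and 0.0328% as lower in Pink1-/-. Of the 9, 4 had log2 fold changes above 0, as did 50.3% of all genes. The groups of all 9 overlapped, whereas for 3.38% of all genes they did not. With signs ignored, the median log2 fold change was 0.423 for the 9 and 0.094 for all genes.

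Nts came nearest to separating the female genotypes. Wild-type females 64, 111, 504 and 980 had 4.24, 4.95, 1.18 and 2.37 CPM, and Pink1-/- females 548, 602, 736 and 983 had 7.96, 8.81, 4.94 and 5.44 CPM. All but the lowest Pink1-/- library lay above every wild-type library, and that library, 736, lay just under wild-type 111. The log2 fold change was 1.10 (SE 0.37), a 2.15-fold difference, with an unadjusted p of 0.0132 and an edgeR adjusted p of 0.896. Leaving out 1 library gave log2 fold changes of 0.82 to 1.39. The authors' deposited table gave 1.10 with a false discovery rate of 0.296.

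Cck was 0.979, 1.13, 3.45 and 0.474 CPM in wild-type females 64, 111, 504 and 980. In Pink1-/- females 548, 602, 736 and 983 it was 0.476, 0.275, 0.517 and 0.494 CPM. Wild-type 504 alone reached 79 counts, the other wild types had 12 to 21 and the Pink1-/- libraries 4 to 11. The log2 fold change was -1.74 (SE 0.57, edgeR adjusted p = 0.873), and without wild-type 504 it was -0.91.

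Vip was equally uneven in wild-type females, at 0.109, 2.96, 3.06 and 1.34 CPM in 64, 111, 504 and 980. Pink1-/- females 548, 602, 736 and 983 had 0.260, 0.895, 0.423 and 0.764 CPM. Wild-type 64, with 2 counts, was the lowest of the 8 libraries, while the other 3 wild types lay above every Pink1-/- library. The log2 fold change of -1.71 (SE 0.70) had an unadjusted p of 0.0330 and an edgeR adjusted p of 0.993. Wild-type 504, which had the highest Cck and Vip and the lowest Nts, also had the highest sum of catecholamine markers, 151 CPM against 10.1 to 46.0 CPM in the other females. Wild-type 111, with Vip at 2.96 CPM, had a catecholamine sum of only 10.9 CPM. Wild-type 980, with a sum of 46.0 CPM, had the lowest wild-type Cck, at 0.474 CPM. The part of catecholamine cells in the 3 values of wild-type 504 was not tested.

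Penk did not pass in females. Wild-type females 64, 111, 504 and 980 had 79.2, 144, 105 and 232 CPM, and Pink1-/- females 548, 602, 736 and 983 had 118, 131, 114 and 153 CPM. The Pink1-/- libraries all lay inside the wild-type range (log2 fold change -0.12, SE 0.26, edgeR adjusted p = 0.995). The sign was that of wild-type 980, since without it the log2 fold change was 0.24. Wild-type 980 also had the highest sum of serotonin markers, 10.8 CPM against 0.964 to 2.23 CPM in the other females. The part of serotonin cells in its Penk value was not tested. Pdyn (0.06, SE 0.56), Tac1 (0.13, SE 0.32) and Sst (0.06, SE 0.36) also stood near 0 on the log2 scale, with an edgeR adjusted p of 0.995 each. Gal stood at -0.42 (SE 0.51) and Crh at -1.07 (SE 0.84), both with an edgeR adjusted p of 0.993.

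Crh and Gal rested on few counts in females. Crh had 6, 17, 7 and 64 counts in wild-type 64, 111, 504 and 980 and 1, 7, 4 and 28 in Pink1-/- 548, 602, 736 and 983. Its log2 fold change ran from -2.25 to -0.05 as single libraries were left out, the value nearest 0 being that without wild-type 980. Gal had 4 to 46 counts, the most in the same library.

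**Figure D2:**
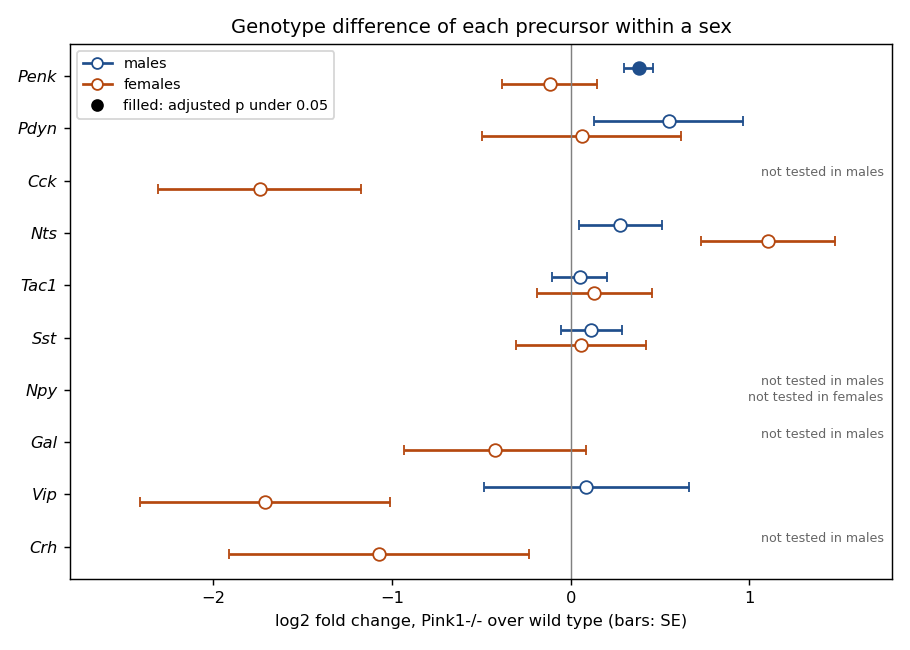
The horizontal axis is the log2 ratio of Pink1-/- to wild type for each precursor, with bars for the SE, in males and females (n = 4 per group). A filled point is an adjusted p under 0.05: only male Penk, at 0.38, is filled, while female Cck (-1.74), Vip (-1.71) and Nts (1.10) lie farthest from 0 with wide bars.

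Whether the genotype difference itself varied between the sexes was tested as an interaction over all 16 libraries. None of the 8 precursors that passed the filter there differed (0 by edgeR, with 1, Cck, at an unadjusted p under 0.05, and 0 by DESeq2, limma-voom and the edgeR likelihood ratio test), and 0.0798% of 15042 genes did, 0.0399% with the female effect above the male one and 0.0399% with it below. An unadjusted p under 0.05 was reached by 14% of all genes. For Penk the female effect minus the male effect was -0.50 on the log2 scale (SE 0.31, edgeR adjusted p = 0.481), and the male rise was thus not shown to differ from the female value. The largest values were -1.82 for Cck (SE 0.81, edgeR adjusted p = 0.331) and -1.79 for Vip (SE 1.02, edgeR adjusted p = 0.437), and Nts stood at 0.83 (SE 0.48, edgeR adjusted p = 0.438). As single libraries were left out, the interaction ran from -2.28 to -0.99 for Cck and from 0.55 to 1.13 for Nts, both nearest 0 without wild-type female 504, and from -0.69 to -0.14 for Penk.

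The spread between libraries was wide for most precursors. In females, all 9 tested members had a biological coefficient of variation above the trend for genes of their abundance, as did 23.3% of all genes, with a median of 0.459 beside 0.136 over all genes. In males, 4 of 6 lay above the trend, as did 28.1% of all genes, with a median of 0.180 beside 0.118. Male Penk was the least variable of them, at 0.089, below its trend of 0.103. Female Penk stood at 0.264, against a trend of 0.115, and Crh, at 0.787, ranked in percentile 99.4 of all female genes.

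Among females, 5 of the 9 tested precursors, Tac1, Penk, Pdyn, Sst and Crh, were highest in the same 4 animals, and Cck, Nts, Gal and Vip were not. Tac1 fell into separate clusters, with 16.1, 20.1, 23.5 and 18.6 CPM in wild-type 111 and 980 and Pink1-/- 602 and 983, and 8.91 to 10.7 CPM in the other 4 libraries. Each genotype gave 2 of those 4 animals. Pdyn was 6.72, 7.42, 10.4 and 8.04 CPM in wild-type 111 and 980 and Pink1-/- 602 and 983, and 1.60 to 5.29 CPM in the others. Sst was 19.6, 32.0, 21.6 and 27.8 CPM in the same order and 10.7 to 16.5 CPM in the others.

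The same 4 females had the lowest Chat, at 6.24, 33.7, 13.0 and 16.7 CPM in the same order, where the others had 40.9 to 76.9 CPM. They had the highest sums of the hindbrain Hox list (10 genes, 12 of 13 identifiers detected), at 56.2, 43.4, 32.8 and 47.2 CPM against 5.98 to 28.0 CPM, and the highest Gad1, the enzyme of GABA synthesis, at 179, 147, 145 and 138 CPM against 68.7 to 119 CPM. Each genotype was thus split evenly over the high and the low libraries. The list of inhibitory markers that holds Gad1 summed to 840 to 1032 CPM in these 4 females and 542 to 653 CPM in the others. Slc32a1 of that list overlapped, at 42.9 to 75.5 CPM and 35.5 to 56.4 CPM. With the log2 CPM of Chat as a covariate, an alternative added after seeing the values, 0 female precursors passed and Nts stood at 1.11 (edgeR adjusted p = 0.502), while male Penk kept 0.38 (edgeR adjusted p = 0.0485). In males the Hox sums ran from 7.0 to 13.2 CPM, and the 3 libraries lowest in Chat, Pink1-/- 18 and wild-type 20 and 22, had the highest Tac1, at 10.8, 11.6 and 11.2 CPM.

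**Figure D3:**
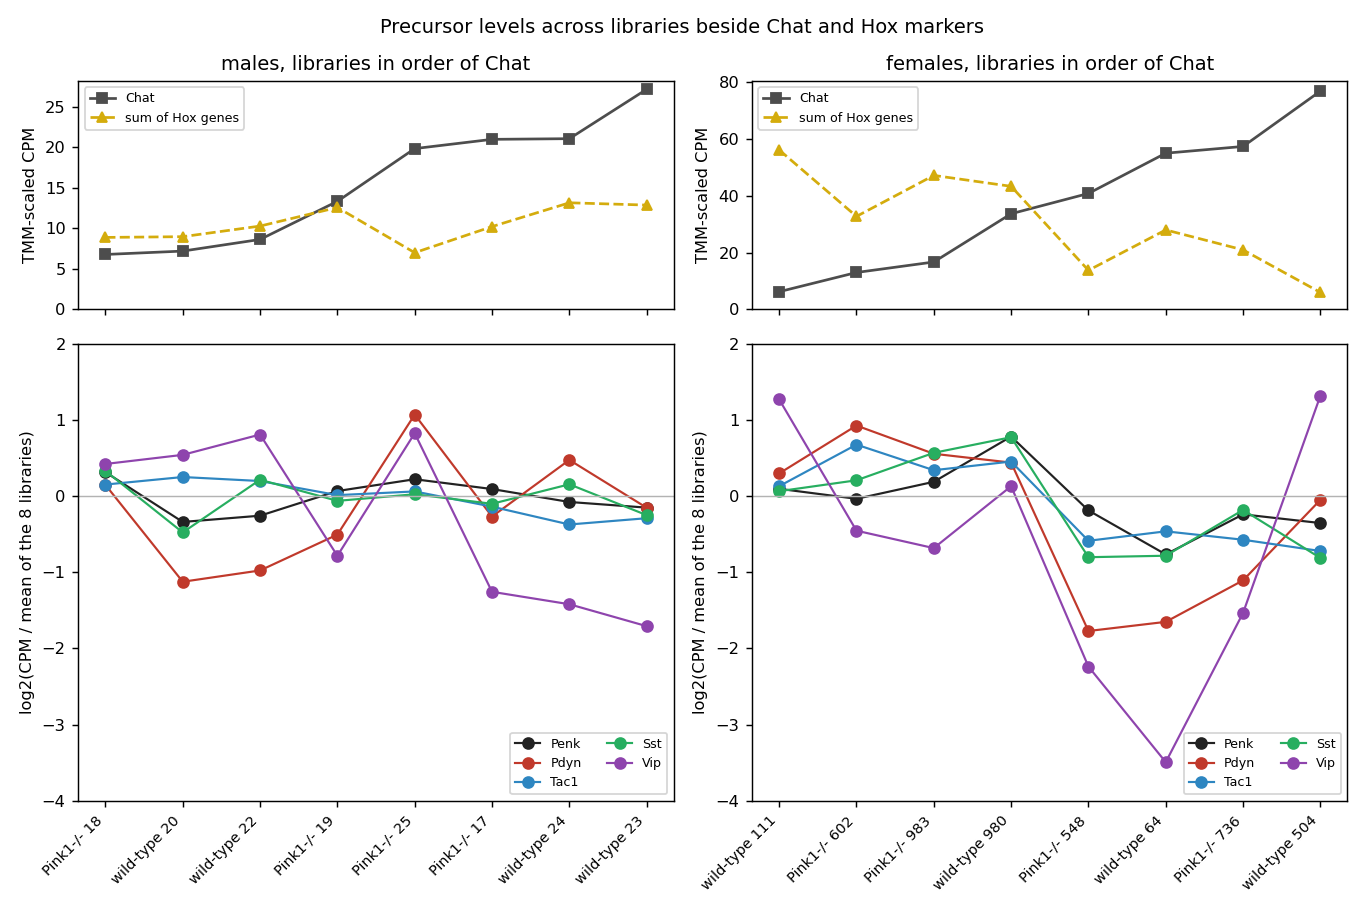
The upper panels plot Chat and the summed Hox markers in CPM, and the lower panels the log2 ratio of Penk, Pdyn, Tac1, Sst and Vip to the mean of the 8 libraries of the sex, with libraries in order of Chat on the horizontal axis. In females the 4 libraries on the left, with Chat at 6.24 to 33.7 CPM, have Tac1 at 16.1 to 23.5 CPM and the 4 on the right 8.91 to 10.7 CPM; male Penk, Tac1 and Sst stay closer to their means.

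Correlations of log2 CPM were computed for 36 pairs of tested precursors in females and 15 in males, with exact permutation p-values. Of the 36 female pairs, 11 had an unadjusted permutation p of Pearson r under 0.05, and 1 had an adjusted p under 0.05. Among the 11 were Sst and Crh (Pearson r = 0.85, exact permutation p = 0.0080, adjusted p = 0.141). In females Penk and Sst varied together over the 8 libraries (Pearson r = 0.86, exact permutation p = 0.0013, adjusted p = 0.0464; Spearman rho = 0.86, exact permutation p = 0.0107, adjusted p = 0.129). Without wild-type 980 and 64, the libraries farthest from the median of Penk, r was 0.87, and with group means removed it was 0.87. Both genes were highest in the females lowest in Chat. That split between libraries was not removed from r or from its permutation p. In males r for the same pair was 0.54 (exact permutation p = 0.172, adjusted p = 0.855; rho = 0.48, exact permutation p = 0.243, adjusted p = 0.802) and -0.25 without wild-type 20 and Pink1-/- 18. For pairs with female Tac1 or male Vip no pooled r is given, because their libraries fall into separate clusters too small to treat alone.

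Over the 16 libraries, with the group means subtracted, the genes most like each precursor were sought among 11911 or 11912 genes, as a description. Penk was closest to Fars2 (r = 0.85, -0.09 in males and 0.95 in females) and to Sst (0.84, 0.64 in males and 0.87 in females). Sst was closest to Nxph4 (0.89, 0.73 in males and 0.92 in females) and the cadherin gene Cdh9 (0.89, 0.37 in males and 0.97 in females). Pdyn was closest to the ephrin gene Efnb3 (0.86, 0.48 in males and 0.96 in females). Nts was closest to Spata7 (0.90, 0.62 in males and 0.97 in females) and Spint1 (0.86, 0.89 in males and 0.85 in females). For all of these but Spint1, r was higher in females than in males. The genes closest to Tac1, Zfhx4 and Slc35g2, and to Vip, Car8 and Tox3, are named without r, since those libraries fall into separate clusters. These points share library, dissection and depth.

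No receptor for these peptides passed the edgeR threshold in either sex. Of 28 receptor and binding genes listed, 27 were matched, and 0 of 18 tested in males and 0 of 22 in females were called by edgeR, with 3 and 1 at an unadjusted p under 0.05. Over all genes, 26.2% in males and 4.64% in females had an unadjusted edgeR p under 0.05. DESeq2 and limma-voom called 0 in each sex and the edgeR likelihood ratio test 1 in males, Npy5r. Npy5r, a neuropeptide Y receptor, stood at 4.64 ± 0.348 CPM in wild-type and 3.09 ± 0.596 CPM in Pink1-/- males without overlap (log2 fold change -0.60, SE 0.17, edgeR adjusted p = 0.0757). The male groups did not overlap, in either direction, for 15.2% of all genes. The somatostatin receptor gene Sstr3 stood at 0.63 on the log2 scale (edgeR adjusted p = 0.171). In females the nearest were the CRH receptor gene Crhr2 (0.94, edgeR adjusted p = 0.912) and Npy1r (0.48, edgeR adjusted p = 0.993). Oprm1, the mu opioid receptor on which enkephalins act, was 11.5 ± 1.78 and 12.2 ± 0.782 CPM in wild-type and Pink1-/- males (log2 fold change 0.08, edgeR adjusted p = 0.705).

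Enzymes that cut and trim the precursors had 0 of 9 tested genes called in each sex, with 3 at an unadjusted p under 0.05 in males and 0 in females, and 0 by the other 3 tools. That unadjusted edgeR p was reached by 26.2% of all male genes and 4.64% of all female genes. In males the convertase gene Furin stood at 0.54 (edgeR adjusted p = 0.117) and Scg5, the chaperone of prohormone convertase 2, at -0.22 (0.122). In females Pcsk1, a convertase of dense-core vesicles, stood at 0.23 and Cpe, carboxypeptidase E, at -0.10, both with an edgeR adjusted p of 0.993. Pcsk2, the other neuronal convertase, was 114 ± 17.7 and 112 ± 8.67 CPM in wild-type and Pink1-/- males.

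Dense-core vesicle genes had 0 of 10 called in each sex by edgeR, with 4 in males and 0 in females at an unadjusted p under 0.05. Of all genes, 26.2% in males and 4.64% in females were under it. The vesicle membrane protein gene Ptprn went from 59.1 ± 8.76 to 84.7 ± 20.8 CPM in males (log2 fold change 0.52, SE 0.15, edgeR adjusted p = 0.0807), which DESeq2 called at an adjusted p of 0.0207 and the likelihood ratio test at 0.0291. Its relative Ptprn2 stood at 0.24 (edgeR adjusted p = 0.0900). In females Vgf stood at 0.22 and Resp18 at -0.10, both with an edgeR adjusted p of 0.993.

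Peptidases that break down released peptides had 0 of 10 tested genes called in males and 0 of 11 in females by edgeR, with 3 and 0 at an unadjusted p under 0.05. The share of all genes under that value was 26.2% in males and 4.64% in females. Ece2, an endothelin-converting enzyme, stood at 0.34 in males (SE 0.09, edgeR adjusted p = 0.0726), and DESeq2 and the likelihood ratio test called it, at 0.0452 and 0.0438. Thop1, which cleaves short neuropeptides, stood at 0.62 (edgeR adjusted p = 0.115). In females Ece1 stood at -0.14 and Dpp3 at -0.16, both with an edgeR adjusted p of 0.993. The median over the peptidases tested was 0.26 in males and -0.05 in females, beside 0.0057 and 0.0011 over all genes.

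Other neuropeptide precursors, 31 listed and 30 matched, were mostly too low to test. Only 9 passed the filter in males and 12 in females, 0 were called by any of the 4 tools, and 1 and 0 had an unadjusted p under 0.05. For all genes that share was 26.2% in males and 4.64% in females. In males Calcb and Calca, which encode the calcitonin gene-related peptides of motor and sensory neurons, stood at -1.05 (SE 0.48, edgeR adjusted p = 0.187) and -0.98 (SE 0.49, edgeR adjusted p = 0.225). In females Nmb, the neuromedin B precursor, stood at -1.04 (SE 0.53) and Apln at -0.18 (SE 0.18), both with an edgeR adjusted p of 0.993.

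**Figure D4:**
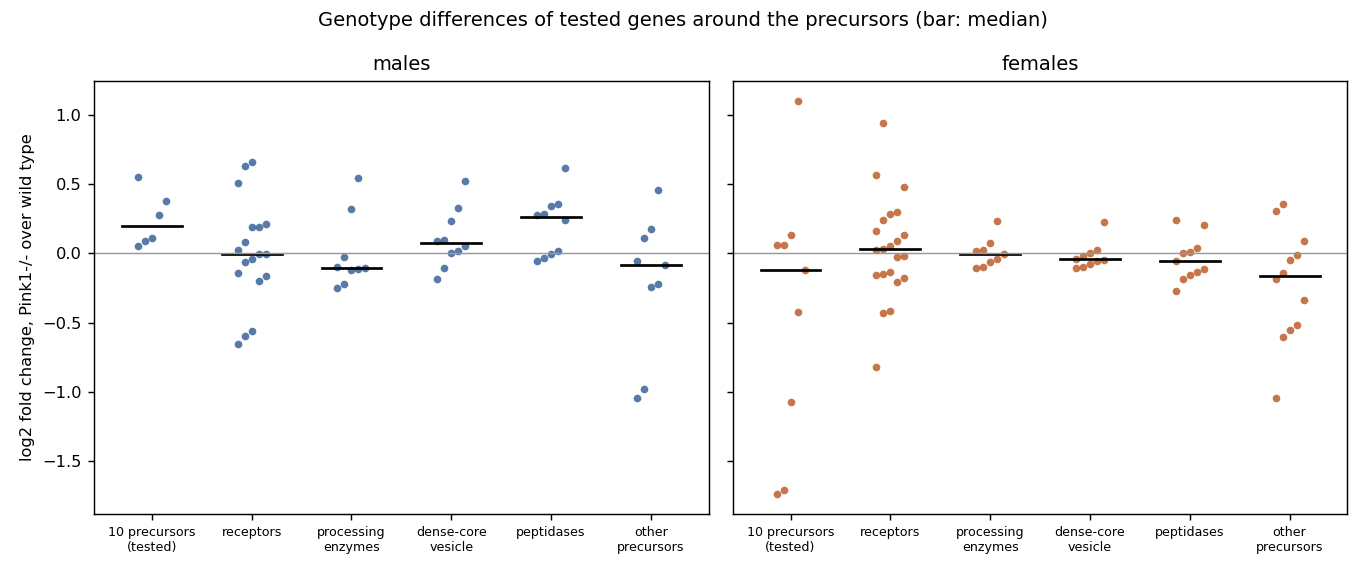
Points are log2 ratios of Pink1-/- to wild type for each tested gene of the 10 precursors and of 5 lists around them, in males and in females, and bars give the median of a list. Of all points only male Penk, at 0.38, had an edgeR adjusted p under 0.05; the medians of the 5 lists lie between -0.11 and 0.26 in males and between -0.16 and 0.03 in females.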

How the data were processed

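The libraries are 16 rat brain samples, 4 per sex and genotype. Per the labels' protocols, frozen dissected tissue was extracted with a kit for fatty and fibrous tissue, and Illumina TruSeq reagents were used for the libraries. Per the submitters' processing notes, the tools were RSEM and edgeR 3.9. The aligner and genome build were not given in the sources used here, nor was the annotation. The deposited tables hold RSEM estimated counts, already whole numbers and used unrounded and unscaled. Per the file headers, the authors' comparison tables hold log2 fold changes and mean log2 CPM, each with a p-value, its false discovery rate and the score of a likelihood ratio test. Columns were matched to samples by animal number, and 0 per-sample columns were left unused.

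Genes passing filterByExpr (minimum count 10, minimum total 15) were scaled by TMM and tested within each sex with the quasi-likelihood test of edgeR 4.0.16 in R 4.3.3, with Benjamini-Hochberg adjustment over all genes and a threshold of 0.05. Each standard error is the size of the log2 fold change divided by the root of its F. Log2 CPM values carry a prior count of 2. DESeq2 1.42.0 and limma 3.58.1 were alternatives. All fits were tested on simulated data. The animal numbers differ between all libraries, so replicates are taken as separate animals, but nothing in the labels says that dissections were independent, and p-values measure the spread between these libraries only. Members, gene lists and tests were chosen with earlier results of these data known. All 10 members were named, with up to 4 called genes of each list, or the 2 with the smallest p where none was called, and the 2 genes most like each member, apart from 1 result that is not reported here.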

Additional observations from a re-analysis of the deposited data

Results flagged for a closer look

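Cck in Pink1-/- female 602 stood apart from its group, at 0.275 CPM (4 counts), where the other 3 Pink1-/- females had 0.476 to 0.517 CPM (11 counts each). Its gap to the nearest library was 0.830 of the range of the group, just past the critical value of Dixon's test for 4 samples. Of 36 groups examined this was the 1 flagged, and chance flags about 1 in 20.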

How the results depend on the processing

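Calls on the precursors were few under every setting: female and interaction members called stayed at 0, and male members called were 1 except with library totals (0), with all 16 libraries in 1 fit (0) and with single libraries left out (0 to 1). Male Penk kept its direction throughout, at 0.33 to 0.42 with a library left out and 0.37 to 0.43 otherwise. Genes called over the whole table moved more. In males the 317 became 853 with DESeq2, 957 with the likelihood ratio test, 168 with library totals, 523 without a filter, 609 with all 16 libraries, 153 without Pink1-/- 17 and wild-type 23, and 98 to 217 with 1 library left out. In females the 9 became 58, 49 and 17 with DESeq2, the likelihood ratio test and all 16 libraries, and 7 to 16 with 1 left out; with library totals 6 of 10 were higher, against 4 of 9. The 12 interaction genes became 122 with DESeq2, 95 with the likelihood ratio test, 3 with library totals, 19 without the features over 1% of a library, 19 without a filter, 21 at a mean of 1 CPM, and 3 to 13 with 1 left out. The cause was not tested.

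Log2 fold changes that reversed belonged to comparisons in which the member had not passed. With 1 library left out, female values ran from -0.31 to 0.24 for Penk, -0.40 to 0.38 for Pdyn, -0.14 to 0.37 for Tac1, -0.19 to 0.48 for Sst and -0.70 to 0.12 for Gal. Male values ran from -0.050 to 0.15 for Tac1 and -0.32 to 0.56 for Vip, and interaction values from -0.18 to 0.32 for Tac1, -0.30 to 0.37 for Sst and -0.15 to 0.70 for Gal. Limma-voom reversed female Pdyn (-0.27) and the Tac1 interaction (-0.0035), and Chat as a covariate reversed female Pdyn (-0.21) and Sst (-0.011). Levels moved by less than 1 SD under other scalings in all 72 comparisons. No paired analysis was possible because the groups share no replicate numbers. Depth limits Cck, Gal and Crh in males, at 1 to 22 counts.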
